A study of Mus musculus with 8 samples.

Results

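The miR-17-92 cluster is a set of microRNAs (miRNAs) that are cut from a single primary transcript. It was followed here through 7 mature products, mmu-miR-17-5p, mmu-miR-17-3p, mmu-miR-18a-5p, mmu-miR-19a-3p, mmu-miR-19b-3p, mmu-miR-20a-5p and mmu-miR-92a-3p, found by these names (the prefix mmu, for mouse, is left out below) among the 1881 mouse miRNAs with a probe on the array. Of these 7 members, 6 are among the 285 miRNAs that were tested, a miRNA being tested where the 4 arrays of either group all measured it above background. Total RNA was from whole kidneys of male mice, in 2 groups of 4 samples. The Akita group carried the strain label C57BL/6-Ins2Akita/J. This line has a dominant mutation in the insulin gene Ins2, which makes insulin misfold in the beta cells of the pancreas, so that diabetes develops without any injected toxin. The control group was C57BL/6J and its samples are titled Mock. Whether they had a mock treatment is not said, nor how many copies of the mutant allele the Akita mice carried. Both groups share the age label 36, given without a unit. Each array was a 1-colour Agilent mouse miRNA array hybridised from 100 ng of RNA.

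A miRNA guides a silencing complex to messenger RNAs, chiefly by pairing of its seed, bases 2 to 8 from its 5′ end. The miR-17-92 transcript is known as an oncogenic and growth-promoting cluster that Myc activates. In the mouse kidney its deletion from nephron progenitors impairs nephron formation, and its overexpression in tubules gives cysts. Its seed groups are known for different targets, among them Cdkn1a and the TGF-beta receptor Tgfbr2 for the miR-17 group and integrin alpha 5 for miR-92a. The seed groups share 1 transcript, so the ratio of 2 members within an array compares their mature products. It is free of the level of that transcript only where both signals come from it alone. The probes of miR-17-5p, miR-19b-3p and miR-92a-3p also match products of a related cluster on the X chromosome.

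The 7 mature sequences are shown because the seed groups, and the few bases by which the members differ, set what each probe can tell apart. They are RefSeq's sequences on mouse build GRCm38.p6, read 5′ to 3′ in the order of the plus strand of chromosome 14, with the seed in capitals.
miR-17-5p: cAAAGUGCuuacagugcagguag
miR-17-3p: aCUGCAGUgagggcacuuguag
miR-18a-5p: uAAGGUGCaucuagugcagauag
miR-19a-3p: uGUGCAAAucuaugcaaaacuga
miR-20a-5p: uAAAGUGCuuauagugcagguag
miR-19b-3p: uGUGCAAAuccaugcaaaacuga
miR-92a-3p: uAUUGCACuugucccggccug

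The 6 hairpins lie within 836 bases, chr14:115043671-115044506. miR-17-5p is at chr14:115043684-115043706, miR-17-3p at chr14:115043721-115043742 and miR-18a-5p at chr14:115043867-115043889. miR-19a-3p follows at chr14:115044048-115044070, miR-20a-5p at chr14:115044183-115044205, miR-19b-3p at chr14:115044358-115044380 and miR-92a-3p at chr14:115044476-115044496. miR-17-5p and miR-20a-5p share 1 seed and differ at C1U and C12U, counted from the 5′ end of miR-17-5p. miR-19b-3p and miR-19a-3p share another and differ by the single change C11U, counted from the 5′ end of miR-19b-3p. miR-18a-5p and miR-92a-3p each have a seed of their own among the members. miR-17-3p, the other arm of the miR-17 hairpin, has a different seed from miR-17-5p and was kept apart from the miR-17 group.

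The mouse genome holds related clusters, and 5 of their products are shown because they carry the same miR-17 or miR-92 seed from other chromosomes. miR-106a-5p and miR-20b-5p come from the X chromosome, and miR-106b-5p, miR-93-5p and miR-25-3p from chromosome 5. miR-106a-5p differs from miR-17-5p at U10A alone, and miR-20b-5p from miR-20a-5p at U1C and U10C.
miR-106a-5p: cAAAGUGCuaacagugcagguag
miR-20b-5p: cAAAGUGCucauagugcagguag
miR-106b-5p: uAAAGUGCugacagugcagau
miR-93-5p: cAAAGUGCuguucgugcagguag
miR-25-3p: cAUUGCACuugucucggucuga

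The X-chromosome cluster also holds second copies of 2 members, whose mature sequences are the same: miR-19b-3p at chrX:52741991-52742013 and miR-92a-3p at chrX:52741854-52741874, both on the minus strand of GRCm38.p6. Signals of these 2 members are therefore sums over both loci.

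All 8 arrays were on 1 slide with 1 scan date, the Akita arrays in row 2 and the control arrays in row 1, so the groups cannot be told apart from the slide's rows. Before scaling, the 75th percentile of the signals of 451 bright probes was 420.8 ± 35.2 in Akita arrays and 506.7 ± 10.3 in control arrays (SD, n = 4 each). Between 274 and 298 miRNAs were above background on the Akita arrays and between 295 and 327 on the control arrays. Scaling set that percentile equal, and the levels below are log2 of the scaled signal. The tissue label was checked against 8 kidney miRNAs, such as miR-192-5p and miR-30a-5p: all 8 were tested, and their summed level was 14.64 to 14.86 in Akita kidneys and 14.61 to 14.79 in control kidneys. None of 5 markers of other organs passed the filter for testing: 3 were above background on no array, miR-1a-3p of muscle was on 3 Akita and 3 control arrays, and miR-122-5p of liver on 2 Akita and 3 control arrays. Signals of different probes depend on the probe, so no member's level is set against another's.

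Of the cluster's 6 tested members, 2 fell in Akita kidneys, by small amounts. They were miR-92a-3p, 1.28-fold lower, and miR-19b-3p, 1.21-fold lower (limma, Benjamini-Hochberg adjusted over 285 miRNAs, threshold 0.05). The other 4 tested members had log2 differences between -0.25 and -0.13 and did not pass. All 6 differences were negative, with a median of -0.21 against 0.06 over all tested miRNAs. In all, 2 of the 6 tested members were called lower, where 6.32% of the 285 tested miRNAs were, and 0 were called higher, where 8.42% were. In 5 of the 6, every Akita value lay below every control value, a pattern found in 9.12% of tested miRNAs. The exception was miR-19a-3p. For miR-17-5p and for miR-17-3p the separation was lost on the only probe of each that was well above background on all arrays. In RNA from whole kidneys, fewer cells of a type and less of a miRNA per cell cannot be told apart.

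miR-92a-3p, the only member with the miR-92 seed and the last hairpin of the transcript, showed the largest change of the 6. Its log2 level was 8.21, 8.07, 8.25 and 8.15 in Akita replicates 1 to 4, against 8.53, 8.52, 8.53 and 8.53 in control replicates 1 to 4. The control values almost coincided, and the highest Akita value was well below all of them. The mean was 8.17 ± 0.08 in Akita kidneys and 8.53 ± 0.0041 in control kidneys (SD, n = 4 each). The log2 fold change was -0.36 (SE 0.064, 95% interval -0.50 to -0.22, limma adjusted p = 0.0067), which ranked 25 from the lowest of the 285. Its 2 probes gave log2 differences of -0.38 and -0.35. The call held with any 1 sample left out, with an adjusted p of at most 0.026. It was lost when the 75th percentile was taken over all probes, where the difference was -0.27 and the adjusted p 0.34.

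In the miR-19 group, miR-19b-3p had log2 levels of 10.08, 9.95, 10.12 and 10.05 in Akita kidneys, against 10.24, 10.43, 10.32 and 10.32 in control kidneys. The groups did not overlap: the highest Akita value was 0.11 below the lowest control value. The means were 10.05 ± 0.08 in Akita kidneys and 10.33 ± 0.08 in control kidneys (SD, n = 4 each), a log2 fold change of -0.28 (SE 0.070, 95% interval -0.43 to -0.12, limma adjusted p = 0.034). This call was close to the threshold. It was lost in 6 of the 8 fits with 1 sample left out, where its adjusted p was 0.096 without control replicate 2, 0.076 without control replicate 3, 0.071 without control replicate 4, 0.067 without Akita replicate 1, 0.064 without Akita replicate 2 and 0.060 without Akita replicate 3. It was also lost with the percentile over all probes (-0.18, adjusted p = 0.53), median scaling (adjusted p = 0.052), total gene signal (adjusted p = 0.055), a floor 4 times higher (adjusted p = 0.051) and no filter on dim miRNAs (adjusted p = 0.24).

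miR-19a-3p, with the same seed, had log2 levels of 7.07, 7.05, 7.22 and 7.26 in Akita kidneys, against 7.17, 7.40, 7.30 and 7.30 in control kidneys. Akita replicates 3 and 4 lay above control replicate 1, so the groups overlapped. The means were 7.15 ± 0.11 in Akita kidneys and 7.29 ± 0.09 in control kidneys (SD, n = 4 each), a log2 difference of -0.14 (95% interval -0.32 to 0.04, limma adjusted p = 0.24). It did not pass the test, and its interval includes both no change and the change of miR-19b-3p.

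The miR-17 group has 2 members on this transcript. miR-17-5p had log2 levels of 5.48, 5.34, 5.41 and 5.45 in Akita kidneys, against 5.66, 5.80, 5.69 and 5.52 in control kidneys. The groups were separated by 0.05, the gap between Akita replicate 1 and control replicate 4. The log2 difference of the means, 5.42 ± 0.06 in Akita kidneys and 5.67 ± 0.11 in control kidneys (SD, n = 4 each), was -0.25 (95% interval -0.42 to -0.08, limma adjusted p = 0.055). That missed the threshold with all samples and passed it without control replicate 4 (adjusted p = 0.040) or without Akita replicate 4 (adjusted p = 0.027). miR-17-5p was measured close to background: its 12-base probe was well above background on none of the 8 arrays, and its 13-base probe, well above background on all 8, gave -0.16 with overlapping groups (limma adjusted p = 0.17 with that probe alone).

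miR-20a-5p, the other member with this seed, was well above background with both probes on all 8 arrays. Its log2 levels were 9.12, 9.02, 9.19 and 9.22 in Akita kidneys, against 9.24, 9.36, 9.33 and 9.30 in control kidneys. All Akita values were below all control values, by as little as 0.02 between Akita replicate 4 and control replicate 1. The means were 9.14 ± 0.09 in Akita kidneys and 9.31 ± 0.05 in control kidneys (SD, n = 4 each). The log2 difference was -0.17 (95% interval -0.33 to -0.02, limma adjusted p = 0.12), and it passed only without Akita replicate 4 among the fits with 1 sample left out (-0.26, adjusted p = 0.038).

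miR-17-3p, the 3p arm of the first hairpin, had log2 levels of 6.08, 6.03, 6.05 and 6.10 in Akita kidneys, against 6.23, 6.26, 6.14 and 6.13 in control kidneys. The spread within Akita was small, and the nearest control value was 0.03 above the highest Akita value. The means were 6.06 ± 0.03 in Akita kidneys and 6.19 ± 0.07 in control kidneys (SD, n = 4 each), and the log2 difference was -0.13 (95% interval -0.27 to 0.01, limma adjusted p = 0.19). Its 14-base probe was well above background on 4 of the 8 arrays. Its 15-base probe, well above background on all 8, gave -0.10 with overlapping groups. The 2 arms of the miR-17 hairpin thus both had negative differences, and neither passed.

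miR-18a-5p, the only member with the miR-18 seed, was above background on 0 Akita arrays and 1 control array. Its log2 values were 4.59, 4.57, 4.58 and 4.85 in Akita kidneys, against 4.62, 4.84, 4.78 and 4.80 in control kidneys. These lie close to the floor of 4.57, the lowest level the scale allows, so it was not tested and no fold is given. The 5 other arms of the transcript, miR-18a-3p, miR-19a-5p, miR-19b-1-5p, miR-20a-3p and miR-92a-1-5p, were above background on none of the 8 arrays. Of the 12 mature products of the 6 hairpins on the array, 6 thus gave a measurable level in kidney.

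**Figure D1:**
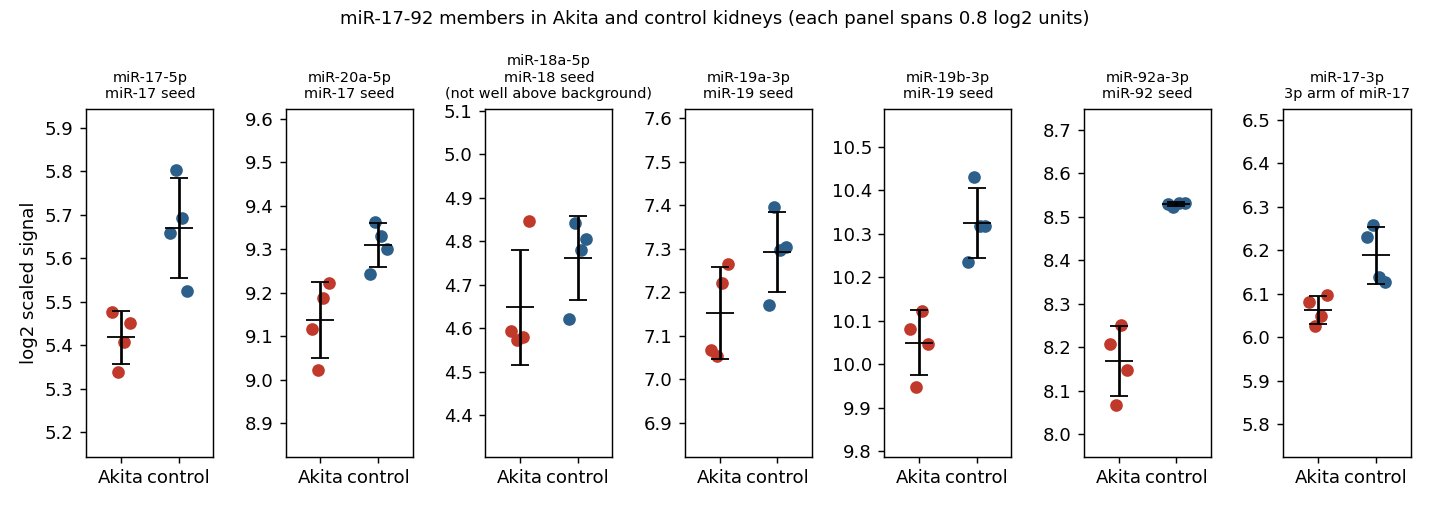
Log2 scaled signal (vertical axis, 0.8 log2 units in each panel) of the 7 members in each Akita and control kidney, with the group mean and SD as bars. The Akita points lie below the control points for miR-17-5p, miR-20a-5p, miR-19b-3p, miR-92a-3p and miR-17-3p, overlap them for miR-19a-3p, and are not well above background for miR-18a-5p.

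The samples deviated together across members. Akita replicate 2 was the lowest Akita sample for all 6 tested members, and control replicate 2 the highest control sample for 5 of the 6, miR-92a-3p being the exception. Some miRNAs outside the cluster, such as let-7a-5p, miR-101a-3p, miR-130a-3p and miR-194-5p, had the same lowest Akita and highest control samples. The pattern is thus not confined to the members. Its share over all tested miRNAs was not counted, so how far it is particular to the members is not known. Over the 15 pairs of tested members, profiles centred on their own mean differed by a root mean square of 0.04 to 0.14 log2 units over the 8 arrays, with a median of 0.09. These profiles share their arrays and their scaling, and the values are given as a description. By the same measure, the miRNAs outside the cluster nearest to miR-17-5p were miR-872-5p at 0.068, miR-20b-5p at 0.069, miR-652-3p at 0.070 and miR-181b-5p at 0.081. Nearest to miR-19b-3p were miR-20b-5p at 0.057, miR-15a-5p at 0.066, miR-10a-5p at 0.072 and miR-26b-5p at 0.073. Nearest to miR-92a-3p were miR-181b-5p at 0.080, miR-15a-5p at 0.086, miR-181d-5p at 0.092 and miR-20b-5p at 0.101. miR-20b-5p, a product of the related X-chromosome cluster, stood among the 4 nearest to each of these 3 members.

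Whether the seed groups changed by different amounts was asked with ratios taken within each array, which no scaling factor of an array can alter. The design listed 8 ratios, of which 5 could be formed, since the 3 with miR-18a-5p had no measurable level. Each of the 5 includes miR-17-5p, miR-19b-3p or miR-92a-3p, whose probes also match X-chromosome products. The part of those products in the ratios was not tested. The probes of miR-17-3p, miR-19a-3p and miR-20a-5p match chromosome 14 alone, but no ratio among these 3 was listed or tested. Their log2 differences were -0.13, -0.14 and -0.17. The root mean square between centred profiles was 0.04 for miR-19a-3p and miR-20a-5p, 0.07 for miR-17-3p and miR-20a-5p, and 0.09 for miR-17-3p and miR-19a-3p. None of the 5 differed between the groups at an adjusted p under 0.05 (limma on the ratios, adjusted over 284 miRNAs for each denominator), and in all 5 the groups overlapped. Over all tested miRNAs, the ratio to miR-17-5p was called lower in 3.17% and higher in 59.9%, and the ratio to miR-19b-3p lower in 1.76% and higher in 63%.

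Between seed groups, the log2 ratio of miR-92a-3p to miR-17-5p was 2.73, 2.73, 2.84 and 2.70 in Akita kidneys, against 2.87, 2.72, 2.84 and 3.01 in control kidneys. The difference was -0.11 (95% interval -0.28 to 0.06, limma adjusted p = 0.24). The sign is that of a larger fall of miR-92a-3p, but control replicates 2 and 3 were inside the Akita range. The log2 ratio of miR-92a-3p to miR-19b-3p was -1.87, -1.88, -1.87 and -1.90 in Akita kidneys, against -1.71, -1.91, -1.79 and -1.79 in control kidneys. Its difference was -0.09 (95% interval -0.22 to 0.04, limma adjusted p = 0.21), and control replicate 2 lay below all Akita samples. The ratio of miR-19b-3p to miR-17-5p differed by -0.02 (95% interval -0.18 to 0.13, limma adjusted p = 0.77).

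Within seed groups, the log2 ratio of miR-20a-5p to miR-17-5p was 3.64 to 3.78 in Akita kidneys and 3.56 to 3.78 in control kidneys. It differed by 0.08 (95% interval -0.08 to 0.24, limma adjusted p = 0.37). The log2 ratio of miR-19a-3p to miR-19b-3p was -3.01, -2.89, -2.90 and -2.78 in Akita kidneys, against -3.06, -3.04, -3.02 and -3.01 in control kidneys. Only Akita replicate 1 fell within the control range, and the difference was 0.13 (95% interval -0.003 to 0.27, limma adjusted p = 0.076). It passed without Akita replicate 1 (0.17, adjusted p = 0.036). Across the 5 ratios the intervals reach from -0.28 at the lowest to 0.27 at the highest on the log2 scale. These intervals do not show that the members fell alike. The difference of miR-92a-3p from miR-17-5p also moved with the summary of the 2 probes: with the mean of the log2 probe values it was -0.29 (limma adjusted p = 0.0069), and that of miR-19b-3p from miR-17-5p was -0.19 (adjusted p = 0.027). Under that setting the 12-base probe of miR-17-5p is at the floor and adds no change, which takes the difference of miR-17-5p to -0.08. With the brightest probe of each miRNA alone the 2 ratios differed by -0.19 (adjusted p = 0.089) and -0.12 (adjusted p = 0.20) and did not pass.

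**Figure D2:**
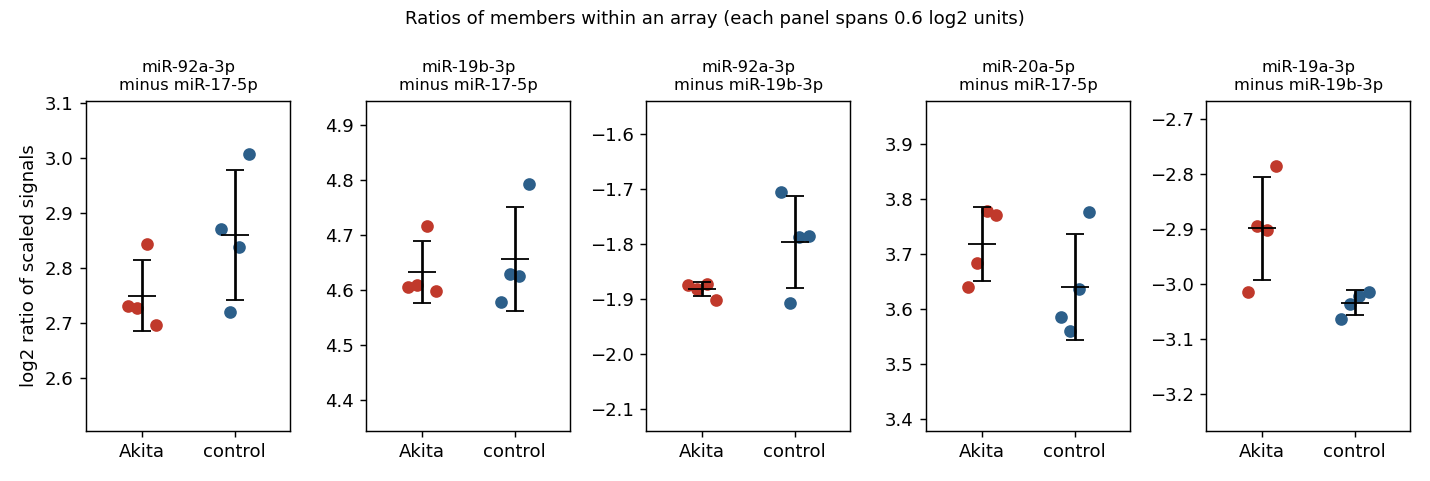
Log2 ratios of 2 members within an array (vertical axis, 0.6 log2 units in each panel) for each Akita and control kidney, with the group mean and SD as bars. The groups overlap in all 5 panels, and in the ratio of miR-19a-3p to miR-19b-3p only 1 Akita point lies among the control points.

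Along the transcript, the differences of the 6 tested members were not ordered by position. The first base of miR-17-5p was taken as 0, which puts miR-17-3p at 37, miR-19a-3p at 364, miR-20a-5p at 499, miR-19b-3p at 674 and miR-92a-3p at 792 bases. The last 2, miR-19b-3p and miR-92a-3p, had the most negative values, -0.28 and -0.36. miR-17-5p at the start had -0.25 from the sum of its 2 probes and -0.16 from the brighter alone, and the 3 between had -0.17 to -0.13. The members also differ in what their probes can bind.

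The probes are shown for the members that have a near-identical relative. Each is DNA complementary to the 3′ part of the miRNA, and capitals mark the letters that differ from the complement of a relative 1 base off.
miR-17-5p probe: ctacctgcactGt
miR-20a-5p probe: ctacctgcactAtAagca
miR-20b-5p probe: ctacctgcactatGagcac
miR-19a-3p probe: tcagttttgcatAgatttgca
miR-19b-3p probe: tcagttttgcatGgatttgc

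The miR-17-5p probes, 12 and 13 bases long, stop short of the base by which miR-106a-5p differs, and match it in full. miR-106a-5p has no probe of its own on the array. The probes of miR-19b-3p and miR-92a-3p match both loci, as their mature sequences do. These 3 members, whose probes match chromosome 14 and the X chromosome, had log2 differences of -0.36 to -0.25, and in 3 of 3 all Akita values were below all control values. The -0.25 and the separation of miR-17-5p need its probe not above background: its brighter probe, at -0.16 with overlapping groups, lies within the range of the other set. The 3 members whose probes match chromosome 14 alone, miR-17-3p, miR-19a-3p and miR-20a-5p, had log2 differences of -0.17 to -0.13, with all Akita values below in 2 of 3. Of those, miR-17-3p lost its separation on its brighter probe, which gave -0.10 with overlapping groups. The split was made after the values were seen, no test was made of it, and with the brighter probe of miR-17-5p it does not separate the 2 sets. The part of the X-chromosome products in the members' signals was not tested. Cross-hybridisation between miR-19a-3p and miR-19b-3p, 1 base apart within the probe, was not tested. Nor was it tested among miR-17-5p, miR-20a-5p and miR-20b-5p, where the probes of each are 1 base off at least 1 other.

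**Figure D3:**
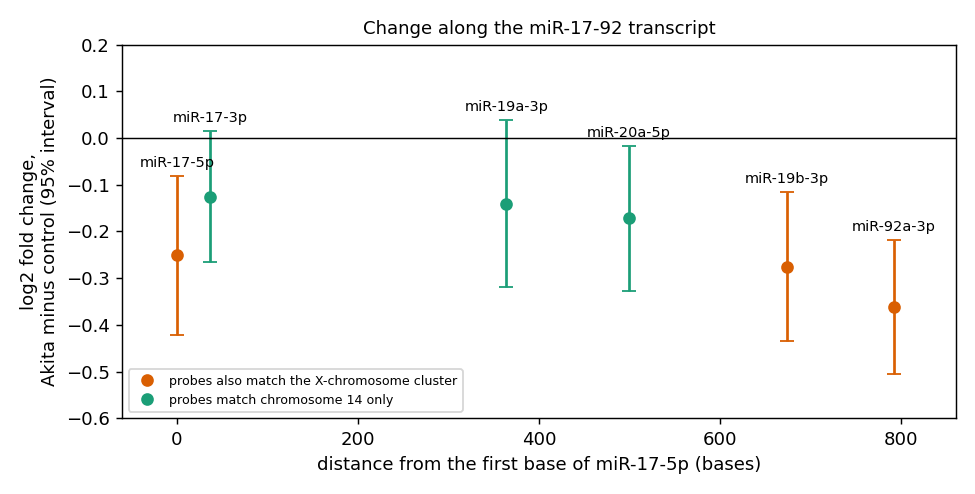
Log2 fold change, Akita minus control (vertical axis, with 95% intervals), against the distance in bases from the start of miR-17-5p (horizontal axis) for the 6 tested members. Points whose probes also match the X-chromosome cluster lie at 0, 674 and 792 bases, between -0.36 and -0.25; points whose probes match chromosome 14 alone lie between -0.17 and -0.13. The point of miR-17-5p would be at -0.16 from its brighter probe.

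Of the 12 probes of the 6 tested members, 10 were well above background on all 8 arrays, with log2 differences of -0.38 to -0.10. All Akita values were below all control values in 6 of the 10, the 2 probes each of miR-19b-3p, miR-20a-5p and miR-92a-3p. The 2 probes of each of these miRNAs differ only in length, so this count repeats the result of the members. The share of such probes over all probes was not counted. The dimmer probes of miR-17-5p and miR-17-3p were well above background on 0 and 4 arrays. Each probe was printed as 15 spots. The coefficient of variation among those spots was 3.5% and 4.5% for the 2 probes of miR-19b-3p, and 6.8% and 7.8% for those of miR-92a-3p. It was 15% for the brighter and 32% for the dimmer probe of miR-17-5p, so this member's change is the least precise by this measure.

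Products of the related clusters, and miR-92b-3p from chromosome 3, come from other transcripts, and most have a seed of the members. Of the 14 listed, 13 had a probe and 4, all with the miR-17 or miR-92 seed, were tested. The other 9 with a probe were above background on no array. None of the 4 was called in either direction, where 14.7% of all tested miRNAs were. From the X-chromosome cluster, miR-20b-5p had log2 levels of 8.52, 8.35, 8.51 and 8.60 in Akita kidneys, against 8.62, 8.80, 8.74 and 8.69 in control kidneys. All Akita values were lower, as for its relative miR-20a-5p, and the difference was -0.22 (95% interval -0.39 to -0.05, limma adjusted p = 0.081).

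From the chromosome 5 cluster, which lies in an intron of Mcm7, the groups overlapped for each of the 3 products. miR-106b-5p was 8.83, 8.74, 8.78 and 9.0 in Akita kidneys, against 8.74, 8.89, 8.82 and 8.80 in control kidneys, a log2 difference of 0.02 (95% interval -0.15 to 0.20, limma adjusted p = 0.88). miR-93-5p differed by 0.08 (95% interval -0.10 to 0.26, adjusted p = 0.48), and miR-25-3p, with the miR-92 seed, by -0.06 (95% interval -0.23 to 0.11, adjusted p = 0.61).

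**Figure D4:**
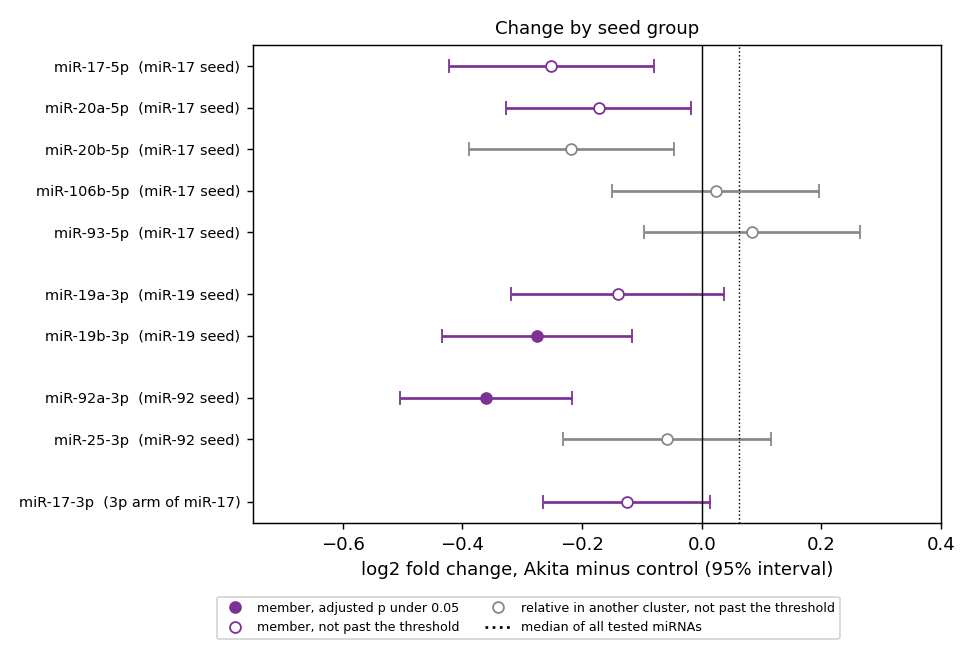
Log2 fold change, Akita minus control (horizontal axis, with 95% intervals), of the tested members in purple and of their relatives from other clusters in grey, grouped by seed. The filled points, miR-19b-3p at -0.28 and miR-92a-3p at -0.36, have a limma adjusted p under 0.05, and the dotted line is the median of all tested miRNAs, 0.06.

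Ratios within an array between members and these relatives, 7 in number and chosen after the values were seen, describe the same seeds made from different transcripts. The log2 ratio of miR-93-5p to miR-17-5p was 3.05, 3.06, 3.03 and 3.22 in Akita kidneys, against 2.68, 2.70, 2.77 and 2.87 in control kidneys. It was higher in Akita by 0.34 (95% interval 0.17 to 0.50, limma adjusted p = 0.0049), with no overlap. The ratio of miR-106b-5p to miR-17-5p was higher by 0.27 (95% interval 0.10 to 0.45, adjusted p = 0.013). These 2 passed beside 59.9% of all tested miRNAs, whose ratio to miR-17-5p was also called higher, so they do not set the chromosome 5 products apart from other miRNAs.

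The same held for the other member of the group. Against miR-20a-5p, miR-93-5p was higher in Akita by 0.26 (95% interval 0.13 to 0.38, limma adjusted p = 0.0063) and miR-106b-5p by 0.20 (95% interval 0.08 to 0.31, adjusted p = 0.013), where 51.4% of tested miRNAs were called higher. For the miR-92 seed, the log2 ratio of miR-25-3p to miR-92a-3p was -0.24, -0.26, -0.32 and -0.06 in Akita kidneys, against -0.62, -0.48, -0.46 and -0.53 in control kidneys. It was higher in Akita by 0.30 (95% interval 0.13 to 0.48, limma adjusted p = 0.0067), where 72.2% were called higher. The ratios of miR-20b-5p to its relatives on chromosome 14 did not pass: that to miR-17-5p differed by 0.03 (95% interval -0.12 to 0.19, adjusted p = 0.69), and that to miR-20a-5p by -0.05 (95% interval -0.14 to 0.05, adjusted p = 0.40).

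Leukocyte markers moved with the groups. Of 7 miRNAs known from leukocytes, among them miR-142a-3p, miR-223-3p and miR-155-5p, 6 were called lower in Akita kidneys. Over all tested miRNAs, 6.32% were called lower. The 7 leukocyte miRNAs had a median log2 fold change of -0.55. Their summed log2 level was 9.84 to 10.05 in Akita kidneys and 10.56 to 10.85 in control kidneys, and none of the 7 was at the floor. The miR-17-92 cluster is known to be active in lymphocyte development, and the part of leukocytes in the members' changes was not tested. The red cell marker miR-451a, the only 1 of 4 listed that could be tested, was 9.32, 9.25, 9.60 and 9.19 in Akita kidneys, against 6.45, 8.61, 10.24 and 7.09 in control kidneys. It was not called (limma adjusted p = 0.24), and its part in the members' changes was not tested. The 2 arms of endothelial miR-126a were not called, with a summed level of 12.31 to 12.66 in Akita kidneys and 12.21 to 12.34 in control kidneys. Of the 8 kidney miRNAs, only miR-200c-3p was called, and it was higher.

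The scaling decides how far the members' changes reach, since the unscaled percentile was lower in Akita arrays. With no scaling all 6 members were called lower, with log2 differences of -0.63 to -0.40, but the median of all tested miRNAs was then -0.21. With scaling to 2 control probes, taken from their names to be labelling spike-ins, all 6 were also called, beside a median of -0.18. With the 75th percentile of all probes 0 of 6 were called, beside a median of 0.16. With each array centred on its median tested miRNA, a setting added after the data were seen, miR-92a-3p (-0.47), miR-19b-3p and miR-17-5p were called. Under these and the other scalings drawn in the plot by scaling, all 6 members had negative differences and miR-92a-3p the most negative.

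The counts over all tested miRNAs moved with the scaling too. They were 18 lower and 24 higher as reported, 104 and 5 with no scaling, and 108 and 7 with the spike-ins. Cyclic loess gave 41 lower and 29 higher, the percentile of all probes 4 and 10, centring on the median tested miRNA 27 and 8, and the authors' deposited ratios, refitted on the log2 scale, gave 20 lower and 16 higher.

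**Figure D5:**
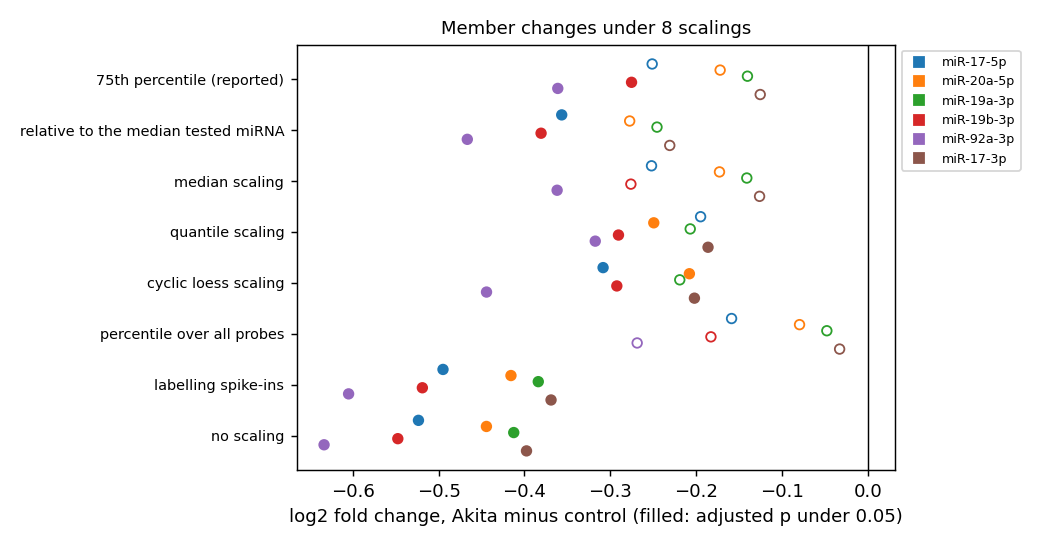
Log2 fold change, Akita minus control (horizontal axis), of the 6 tested members under the reported scaling and 7 others (vertical axis), with filled points at a limma adjusted p under 0.05. All points lie left of 0; all 6 members are filled with no scaling and with the spike-ins, and none with the percentile over all probes.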

How the data were processed

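Small RNAs of 4 Akita and 4 control kidneys were measured. Spot intensities were extracted by the authors with Agilent Feature Extraction 12.0.3.1, per the file headers, as background-subtracted processed signals. A deposited value table holds a ratio per miRNA and array whose scale, centring and direction are not stated in the sources used here; its column medians were 1.03 to 1.22 in Akita and 0.70 to 0.97 in control, and its log2 served as an alternative only.

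From the spot intensities, outlier spots (2.03% to 3.02% of each array) were left out, no spot was saturated, and spots of a probe were averaged. Arrays were scaled to the 75th percentile of the 451 probes well above background on all arrays. Probes of a miRNA were summed, a floor of 23.8 (4.57 on the log2 scale) was set, and log2 was taken. miRNAs above background on all 4 arrays of a group were tested with limma 3.58.1 in R 4.3.3 (moderated, 9.16 degrees of freedom), with Benjamini-Hochberg adjustment over 285. For ratios, the log2 level of 1 member was subtracted from every other tested miRNA before the same fit. The fits were tested on simulated data.

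Members were named in full, with tested products of related clusters and the 4 miRNAs outside the cluster nearest in profile to the 3 leading members. Members and lists were chosen with earlier results of these data known. Mature sequences and positions are RefSeq's (GRCm38.p6): 7 of 7 members had one, and so did 25 of 26 listed miRNAs counting members, other arms and relatives. The array's own annotation uses another build and its coordinates were not used. The labels do not say that each sample is its own mouse, so the p-values reflect only how these samples vary, which may be technical. Precision is limited by the number of arrays. Replicates of a group differed by a root mean square of 0.25 to 0.42 log2 units in Akita and 0.21 to 0.38 in control, so none was a copy. In all, 26 other settings were tried, 25 of them listed at the outset and 1 added after the data were seen.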

Additional observations from a re-analysis of the deposited data

Results flagged for a closer look

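In 90 groups of 4 values, 8 held 1 sample far from the other 3 by Dixon's criterion for a gap relative to the range, where chance gives about 1 in 20 groups. Of the members, miR-18a-5p was 4.85 in Akita replicate 4 and 4.57 to 4.59 in the other Akita samples, at signals not well above background. Its value in Akita replicate 2 had been raised to the floor of 4.57, which shortens the range that the criterion uses. The log2 ratio of miR-19b-3p to miR-17-5p was 4.72 in Akita replicate 3 and 4.60 to 4.61 in the others. The log2 ratio of miR-93-5p to miR-17-5p was 3.22 in Akita replicate 4 and 3.03 to 3.06 in the others. Among the leukocyte markers, miR-155-5p was 5.47 in Akita replicate 4 (5.52 to 5.53 in the others) and 6.01 in control replicate 4 (6.16 to 6.18 in the others). Among the kidney markers, control replicate 1 was low for miR-192-5p (11.89 against 12.12 to 12.15), miR-204-5p (6.17 against 6.42 to 6.47) and miR-10b-5p (11.22 against 11.38 to 11.41).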

How the results depend on the processing

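Over the 26 other settings, the 6 tested members had 154 values, of which 151 were negative and 58 passed; none was called higher. miR-92a-3p was negative in all 26 (-0.63 to -0.22). With normexp background miR-17-5p was 0.098, miR-17-3p 0.095 and miR-19a-3p 0.014. The members called lower, 2 as reported, were 6 with no scaling and with spike-ins, 5 with cyclic loess, 4 with quantile scaling and with array quality weights, and 1 with median scaling, total gene signal, a floor 4 times higher or no filter. They were 0 with the percentile over all probes. Leaving out 1 replicate gave 1 to 4: 1 without control replicate 2 or 3 or Akita replicate 1, 2 or 3, and 4 without Akita replicate 4.

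All tested miRNAs called lower (18) and higher (24) became 104 and 5 with no scaling, 108 and 7 with spike-ins, 4 and 10 with the all-probe percentile, 8 and 81 with normexp, 5 and 4 with the higher floor, 2 and 4 with no filter (over 1881 miRNAs) and 28 and 48 with weights. Cyclic loess gave 41 lower, quantile scaling 26 lower and median scaling 16 lower. Total gene signal gave 12 lower and 9 higher, and centring on the median 8 higher. Without Akita replicate 4, 25 were called lower. Leaving out 1 replicate gave 11 to 27 lower and 6 to 18 higher: 11 lower without Akita replicate 1 or 3, and 6 to 12 higher without any replicate other than control replicate 1, which gave 18.

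For ratios, miR-92a-3p to miR-17-5p passed with normexp (-0.31) and mean log2 probe values (-0.29), and ranged from -0.16 to -0.06 over the replicates left out. miR-19b-3p to miR-17-5p passed with the same settings (-0.35 and -0.19), turned to 0.016 with cyclic loess, 0.028 with weights and 0.022 without control replicate 4, and ranged from -0.052 to 0.022. miR-92a-3p to miR-19b-3p passed with cyclic loess (-0.15), turned to 0.037 with normexp, and ranged from -0.12 to -0.06. miR-20a-5p to miR-17-5p turned to -0.054 with quantile scaling, -0.23 with normexp (adjusted p = 0.0058), -0.092 with mean log2 probe values and -0.0052 with the brightest probe, and ranged from 0.05 to 0.12. miR-19a-3p to miR-19b-3p passed with normexp (0.27), the higher floor (0.13), no filter (0.13) and without Akita replicate 1, and ranged from 0.10 to 0.17. Under the higher floor miR-17-5p and miR-17-3p were at the floor on all arrays and gave no value. The cause of these changes was not tested, beyond what each setting's construction shows.

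Same-numbered samples of the 2 groups deviated together with correlations of 0.10, -0.30, 0.34 and -0.35, and 1 Akita and 0 control samples correlated best with their own number, so the numbers do not pair the samples. With the replicate block 0 members were called (adjusted p = 0.070 for miR-92a-3p and 0.17 for miR-19b-3p), and 14 miRNAs were called lower and 11 higher. Signal over background limits miR-18a-5p, miR-17-5p and miR-17-3p, which each had a probe not well above background on all arrays.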
